A study of Mus musculus with 12 samples.

Results

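Genes for neutrophil granule and cytosol proteins were followed in cultures of bone marrow-derived macrophages (BMDMs). The 10 genes were S100a8, S100a9, Ngp, Camp, Ltf, Lcn2, Mpo, Elane, Prtn3 and Retnlg. They were found through the transcript accession that the array gives for each probe, which matched 11 probes, 2 of them for Ltf, among probes for 32301 genes or transcripts. Where a gene had several probes the brightest was used. The question was whether these genes moved together, as they would with a changed mixture of cells, or gene by gene.

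BMDMs were grown from bone marrow of C57BL/6 mice aged 8 weeks in medium with the macrophage growth factor M-CSF for 7 days. KpCKO mice lack Keap1, the adaptor that marks the transcription factor Nrf2 for degradation, in myeloid cells (Keap1 flox/flox with Cre under the lysozyme promoter LysM, which is active in macrophages and in neutrophils), and wild-type (WT) mice served as controls. Cells were left untreated (Con) or given lipopolysaccharide (LPS) with interferon-γ (M1) or interleukin-4 (M2), for 6 h. Each of the 6 groups held 2 arrays, 1 from each of 2 independent cultures, and each culture had 1 WT and 1 KpCKO mouse, so that 4 mice gave 3 arrays each. Culture 1 came from male and culture 2 from female mice. Culture, sex and individual mouse therefore cannot be told apart, and p-values measure the spread between these few arrays. Each of the 3 slides carried the 4 arrays of 1 treatment, so M1 and M2 effects cannot be told apart from slide effects, while genotypes were compared within a slide.

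Neutrophils fill their granules in a fixed order as they mature in the marrow. The primary, or azurophil, granules are filled first, at the promyelocyte stage, with myeloperoxidase (Mpo) and the serine proteases neutrophil elastase (Elane) and proteinase 3 (Prtn3). Specific granules follow at the myelocyte stage and hold lactoferrin (Ltf), cathelicidin (Camp), lipocalin 2 (Lcn2) and neutrophilic granule protein (Ngp). S100a8 and S100a9 form calprotectin, an abundant cytosolic protein of neutrophils, which is also made by monocytes. Retnlg encodes a resistin-like protein secreted by mature neutrophils. Lcn2, which withholds iron from bacteria by binding their siderophores, is also an LPS-inducible gene of macrophages. In RNA of a whole culture, fewer cells of a type and less RNA per cell cannot be told apart.

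Levels are log2 signals relative to the 75th percentile of the same array, so that 0 is that percentile and 1 unit is a 2-fold step. Probes differ in how strongly they bind, so levels were compared between arrays and never between genes. A probe counted as detected on an array where the scanner software found it well above background. Mpo, Camp, Ltf, S100a8 and S100a9 were detected on all 12 arrays and Elane on none. The other 4 genes were detected on some arrays. Of the 10 genes, 9 passed the requirement of detection on both arrays of at least 1 group and were tested. The 75th percentile signal ranged from 548 to 1166 between arrays and was lowest on the M1 slide (548 to 906). Keap1 checked the genotype labels: KpCKO minus WT ran from -1.92 to -1.45 over both cultures and all treatments. All 11 macrophage markers with a probe were detected on all 12 arrays, as were 17176 of the 32301 genes or transcripts. Detection alone does not set macrophages apart. On all 12 arrays 7 of 7 listed monocyte markers and 9 of 11 mature neutrophil genes were detected too.

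The promoters of 4 genes are shown, because these genes passed the M1 test in both genotypes: Lcn2 and Camp, which were higher in M1, and Ltf and Retnlg, which were lower. Each run is the 250 bases before the annotated start in RefSeq (GRCm38.p6), read in the direction of the gene. Capitals mark matches on either strand to TTGCNNAA, a core of the site for C/EBP factors that drive granulocyte genes, or to a core of the κB site, which was 3 G, 5 bases of any kind and 2 C. In Ltf, capitals after the first run cover 3 overlapping κB matches. The windows are chr2:32387740-32387989 (minus strand) for Lcn2, chr9:109849457-109849706 (minus strand) for Camp, chr9:111019042-111019291 (plus strand) for Ltf and chr16:48872358-48872607 (plus strand) for Retnlg.
Lcn2: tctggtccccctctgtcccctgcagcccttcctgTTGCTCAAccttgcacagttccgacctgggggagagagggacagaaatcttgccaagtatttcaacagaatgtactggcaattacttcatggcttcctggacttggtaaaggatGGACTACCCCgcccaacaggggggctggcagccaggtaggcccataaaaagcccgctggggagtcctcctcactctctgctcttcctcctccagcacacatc
Camp: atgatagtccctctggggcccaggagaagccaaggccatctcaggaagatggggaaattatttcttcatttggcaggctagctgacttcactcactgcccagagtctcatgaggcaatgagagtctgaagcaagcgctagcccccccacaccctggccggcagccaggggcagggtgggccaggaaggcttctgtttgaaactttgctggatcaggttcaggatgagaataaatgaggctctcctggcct
Ltf: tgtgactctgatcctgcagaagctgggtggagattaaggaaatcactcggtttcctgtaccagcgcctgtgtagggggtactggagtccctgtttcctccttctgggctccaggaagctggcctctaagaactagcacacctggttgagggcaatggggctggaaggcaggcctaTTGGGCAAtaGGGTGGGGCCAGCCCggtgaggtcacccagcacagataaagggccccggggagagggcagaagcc
Retnlg: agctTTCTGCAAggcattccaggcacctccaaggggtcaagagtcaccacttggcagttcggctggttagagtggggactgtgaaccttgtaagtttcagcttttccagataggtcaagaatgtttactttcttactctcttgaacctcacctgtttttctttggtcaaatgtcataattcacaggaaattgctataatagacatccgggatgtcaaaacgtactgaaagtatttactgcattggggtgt

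The C/EBP letters were found in 5 of the 10 promoters, those of Lcn2, Ltf, Ngp, Retnlg and S100a9, against 9.56% of all 32851 promoters of this length. The match began 216 bases before the start in Lcn2, 75 in Ltf, 246 in Retnlg and 236 in S100a9. Ngp had matches at 138 and 11 bases. κB letters were found in 4 promoters, those of Lcn2, Ltf, Mpo and Prtn3, against 45.8% of all promoters. Camp, with no match to either set of letters in this window, rose under M1, while Ltf, with matches to both, fell.

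**Figure D1:**
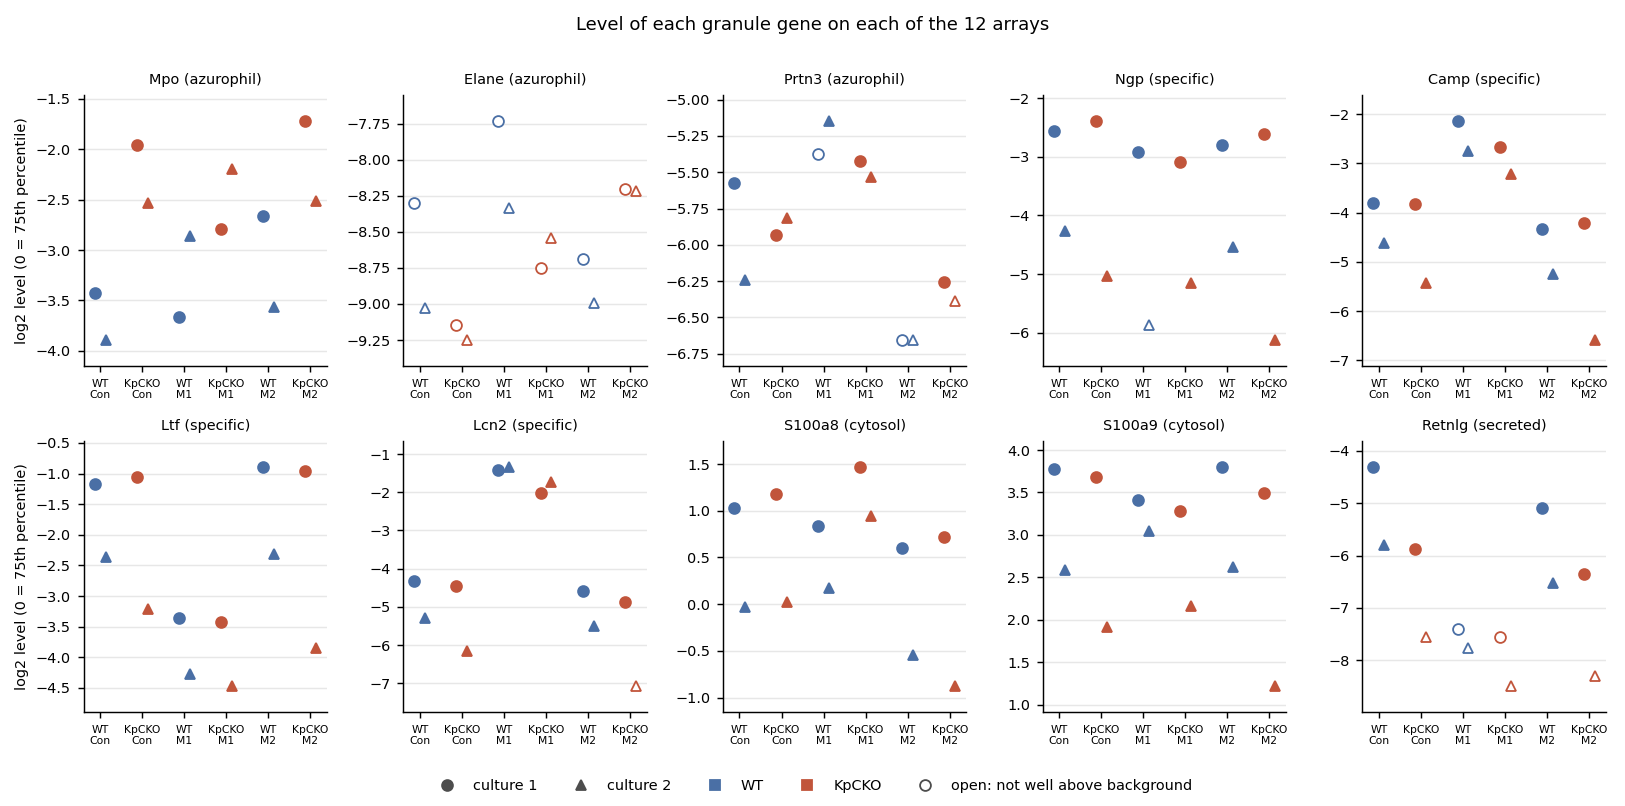
Log2 level of each gene on each array, where 0 is the array's 75th percentile. Circles are culture 1, triangles culture 2, blue WT, red KpCKO, and open symbols were not well above background. Triangles lie below circles in Con and M2 for the 7 genes from Ngp to Retnlg, while Lcn2 and Camp are raised and Ltf is lowered in M1.

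The granule genes did not move as 1 block. Under M1 they split gene by gene, with Lcn2 and Camp higher and Ltf lower in both genotypes. Such a split was not particular to them. Under M1 34.5% of all genes rose and 28.7% fell in WT, and 24.8% and 25.4% in KpCKO. Of the 9 tested genes 5 passed in WT and 4 in KpCKO, against 63.2% and 50.2% of all genes. No tested gene differed between KpCKO and WT under any treatment at an adjusted p of 0.05 (1.93% to 16% of all genes did). Still, Mpo was higher in KpCKO in every pair of arrays, though the pairs come from only 2 cultures and the share of all genes doing so was not counted. Mpo was higher in 5 of 6 pairs with normexp background correction and in 6 of 6 with normexp leaving out 4 aberrant spots of 1 array. Retnlg was lower in every pair in which WT cells gave a detected signal. The members that went together did so between the 2 cultures. All 4 specific granule genes, both calprotectin genes and Retnlg were over 1.5-fold lower in culture 2 in untreated and M2 cells of both genotypes. Of these, Retnlg was not detected on the culture 2 KpCKO arrays. Mpo was lower in all 4 groups too, at -0.90 to -0.47, but short of 1.5-fold in untreated cells. Elane was detected on no array and Prtn3 was dim, so these genes give no firm contrast.

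Mpo, the azurophil enzyme that makes hypochlorous acid from hydrogen peroxide, had log2 levels in Con of -3.43 (culture 1) and -3.89 (culture 2) in WT and -1.96 and -2.54 in KpCKO. In M1 they were -3.66 and -2.86 in WT and -2.79 and -2.19 in KpCKO. In M2 they were -2.67 and -3.57 in WT and -1.72 and -2.51 in KpCKO. KpCKO was higher than WT in 6 of 6 pairs from the same culture and slide, and the 2 genotypes did not overlap within any treatment. The pairs come from only 2 cultures, with each mouse read on 3 arrays. The share of all genes with such a pattern was not counted. With normexp background correction KpCKO was higher in 5 of 6 pairs, the exception being culture 2 in M2 (-0.17). The differences shrank to 0.96 in Con, 0.31 in M1 and 0.27 in M2. In M2, 4 aberrant spots had pulled the fitted background of the culture 2 WT array to -160. With these spots left out, KpCKO was higher in 6 of 6 pairs, by 0.23 to 1.12. By limma without normexp the difference was 1.41 (95% interval 0.35 to 2.48, adjusted p = 0.211) in Con. It was 0.77 (-0.30 to 1.83, adjusted p = 0.268) in M1 and 0.999 (-0.06 to 2.06, adjusted p = 0.380) in M2. None of these passed. Differences of M1 or M2 from Con lay between -0.25 and 0.54 in the 2 genotypes, with adjusted p from 0.450 to 0.888. In order of mean level the 3 KpCKO groups came first, each overlapping the next.

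Elane stayed between -9.25 and -7.73 and was not well above background on any array, so it was not tested and no fold is given. Prtn3 was dim. Its WT levels in cultures 1 and 2 were -5.58 and -6.24 (Con), -5.37 and -5.15 (M1) and -6.65 and -6.65 (M2, both not well above background), and its KpCKO levels -5.93 and -5.82 (Con), -5.42 and -5.53 (M1) and -6.26 and -6.39 (M2). In WT it was higher in M1 than in Con by 0.65 (adjusted p = 0.0272), although 1 of the 2 WT M1 arrays did not detect it. This call was lost without the culture 2 array of WT Con (0.31, adjusted p = 0.167) or of WT M1 (0.46, adjusted p = 0.160) and with quantile normalization (0.44, adjusted p = 0.0533). Of Mpo, Elane and Prtn3, Mpo alone was detected on all arrays.

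Camp, the precursor of the antimicrobial peptide CRAMP, had levels of -3.80 and -4.61 in WT Con and -3.83 and -5.43 in KpCKO Con. In M1 it was at -2.14 and -2.74 in WT and -2.66 and -3.21 in KpCKO. In M2 it was at -4.34 and -5.25 in WT and -4.22 and -6.59 in KpCKO. All 4 M1 arrays, which share a slide, were above all 8 other arrays. How many of all genes separated in this way was not counted, while 63.2% of all genes passed in WT M1. The rise in M1 was 1.77 ± 0.43 (SE) in WT, or 3.41-fold (adjusted p = 0.0102), and 1.69 ± 0.43, or 3.23-fold, in KpCKO (adjusted p = 0.0158). It fell short of the threshold in WT without the culture 1 Con array (1.57, adjusted p = 0.0635) or the culture 2 M1 array (1.44, adjusted p = 0.0691), and in KpCKO without the culture 2 array of Con (1.42, adjusted p = 0.103) or of M1 (1.34, adjusted p = 0.106).

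Lcn2 gave the largest response of the 10 genes. Its levels in Con were -4.34 and -5.28 in WT and -4.46 and -6.17 in KpCKO, and in M1 they were -1.42 and -1.34 in WT and -2.02 and -1.72 in KpCKO. In M2 they were -4.59 and -5.51 in WT and -4.87 and -7.07 in KpCKO, the last of which was not well above background. The M1 arrays were all above the others, a separation that was not counted over all genes. Lcn2 rose by 3.43 ± 0.59 (SE), or 10.8-fold, in WT (adjusted p = 0.00204) and by 3.44 ± 0.59, or 10.8-fold, in KpCKO (adjusted p = 0.00278). Both calls held under all 20 other limma settings in which Lcn2 was tested, with adjusted p up to 0.0267. Its size moved more: the rise was 2.30 in WT and 1.85 in KpCKO with normexp, 2.84 and 2.72 without the culture 2 M1 array of that genotype and 4.01 and 4.16 without the culture 1 M1 array. The rise was larger in culture 2, at 3.94 in WT and 4.44 in KpCKO, than in culture 1, at 2.92 and 2.43.

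Ltf, the iron-binding protein lactoferrin, went the other way. In Con it was at -1.17 and -2.37 in WT and at -1.06 and -3.20 in KpCKO, and in M2 at -0.90 and -2.31 in WT and -0.97 and -3.85 in KpCKO. In M1 it was at -3.36 and -4.27 in WT and -3.42 and -4.47 in KpCKO. The M1 arrays lay below the Con arrays of the same culture in both genotypes. Ltf fell by 2.05 ± 0.47 (SE) in WT (adjusted p = 0.00729) and by 1.81 ± 0.47 in KpCKO (adjusted p = 0.0159). Con and M1 did not overlap in either genotype, which was not counted over all genes. The second Ltf probe was also lower in M1 than in Con in each culture, at -4.27 against -1.94 and -4.68 against -3.15 in WT and at -4.10 against -1.80 and -5.74 against -3.86 in KpCKO. Without the culture 2 WT Con array the WT value was -1.80 (adjusted p = 0.0536), and without the culture 1 array of KpCKO Con or KpCKO M1 the KpCKO value was -1.48 in both cases (adjusted p = 0.0996 and 0.0936).

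Ngp, a cystatin-like protein of the specific granule, had the widest spread of the 10 genes between cultures. In Con it was at -2.57 and -4.27 in WT and -2.39 and -5.03 in KpCKO. In M1 it was at -2.91 and -5.86 (not well above background) in WT and -3.09 and -5.15 in KpCKO, and in M2 at -2.79 and -4.54 in WT and -2.61 and -6.13 in KpCKO. Every culture 2 array was below every culture 1 array. M1 minus Con was -0.97 (-2.02 to 0.08, adjusted p = 0.0929) in WT and -0.41 (-1.46 to 0.64, adjusted p = 0.473) in KpCKO.

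S100a8 and S100a9 share a dimer but did not share their M1 values. For S100a8 the WT levels in cultures 1 and 2 were 1.03 and -0.03 (Con), 0.84 and 0.17 (M1) and 0.60 and -0.54 (M2), and the KpCKO levels 1.18 and 0.02 (Con), 1.47 and 0.95 (M1) and 0.72 and -0.88 (M2). For S100a9 the WT levels were 3.78 and 2.59 (Con), 3.41 and 3.05 (M1) and 3.80 and 2.62 (M2), and the KpCKO levels 3.68 and 1.91 (Con), 3.28 and 2.17 (M1) and 3.50 and 1.22 (M2). Culture 1 was above culture 2 in every group for both genes. In M1 the KpCKO minus WT difference of S100a8 was 0.63 in culture 1 and 0.78 in culture 2 (0.70, adjusted p = 0.0950), while that of S100a9 was -0.13 and -0.88 (-0.51, adjusted p = 0.406). The M1 minus Con difference was 0.01 in WT and 0.61 in KpCKO for S100a8 (adjusted p = 0.983 and 0.0772) and 0.05 and -0.07 for S100a9 (adjusted p = 0.928 and 0.896).

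Retnlg was at -4.31 and -5.79 in WT Con and -5.87 and -7.56 in KpCKO Con, the last not well above background. In M2 it was at -5.09 and -6.53 in WT and -6.35 and -8.29 in KpCKO, the last again not well above background. None of the 4 M1 arrays detected it (-7.40 and -7.77 in WT, -7.55 and -8.49 in KpCKO). KpCKO was lower than WT in all 4 pairs of Con and M2, and the genotypes did not overlap in Con. The share of all genes with such a pattern was not counted. The difference was -1.66 (-2.49 to -0.83, adjusted p = 0.0738) in Con and -1.51 (-2.34 to -0.68, adjusted p = 0.105) in M2. It passed without either WT M1 array (adjusted p = 0.0284 in Con and 0.0393 in M2) and, in Con, with quantile normalization (-1.73, adjusted p = 0.0293). With normexp background correction it shrank to -0.37 in Con and -1.002 in M2. The M2 value leaned on the culture 2 WT array, whose fitted background was pulled to -160 by 4 spots far below their local background. With normexp, Retnlg levels in M2 were -3.60 in WT and -4.02 in KpCKO in culture 1, and -2.35 and -3.93 in culture 2. In WT its Con mean was 1.67-fold above the dimmest detected signals of the M1 arrays (measured means -7.59 in M1 against -5.05 in Con, adjusted p = 0.000724). Those signals are not a strict bound. On the WT M1 arrays of cultures 1 and 2, undetected Prtn3 (-5.37) and Ngp (-5.86) lay above them (-5.58 and -6.01). In KpCKO the M1 minus Con value was -1.30 (adjusted p = 0.0189). No fold could be given, because the Con mean was under the dimmest detected signals of the KpCKO M1 arrays. This KpCKO call was lost without the culture 1 array of Con (-1.08, adjusted p = 0.112) or of M1 (-1.08, adjusted p = 0.104). With normexp background correction, which presses dim signals together, both values turned to 0.16 and 0.10. Members of the resistin-like family resemble each other in sequence and cross-hybridization was not tested. Retnla, a relative that interleukin-4 induces in macrophages, had a different pattern. It was undetected in Con and M1, and in WT M2 it reached 6128-fold the dimmest detected signals of the WT Con arrays. Chil3, a chitinase-like interleukin-4 gene, rose by 5.02 in WT M2 (adjusted p = 0.000169).

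Across the tested genes, 0 of 9 differed between KpCKO and WT in Con, where 2.22% of all 22367 genes did, 0 of 9 in M1 (16% of all genes) and 0 of 9 in M2 (1.93% of all genes). At an unadjusted p under 0.05 there were 2, 1 and 1. The 9 differences ran from -1.66 to 1.41 in Con, from -0.51 to 0.77 in M1 and from -1.51 to 0.999 in M2, with medians of -0.36, -0.22 and -0.70 against 0.0016, -0.09 and 0.02 over all genes. Intervals on the Con differences of the specific granule genes were wide, reaching from -1.90 to 0.90 in Lcn2 and from -1.47 to 0.74 in Ltf. With normexp leaving out 4 aberrant spots of 1 array, Camp (-0.42), Lcn2 (-0.55) and Retnlg (-0.43, undetected in M1) passed as lower in KpCKO M1. In this setting 7514 genes passed, against 3579 without normexp, and the median of all genes was -0.22.

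**Figure D2:**
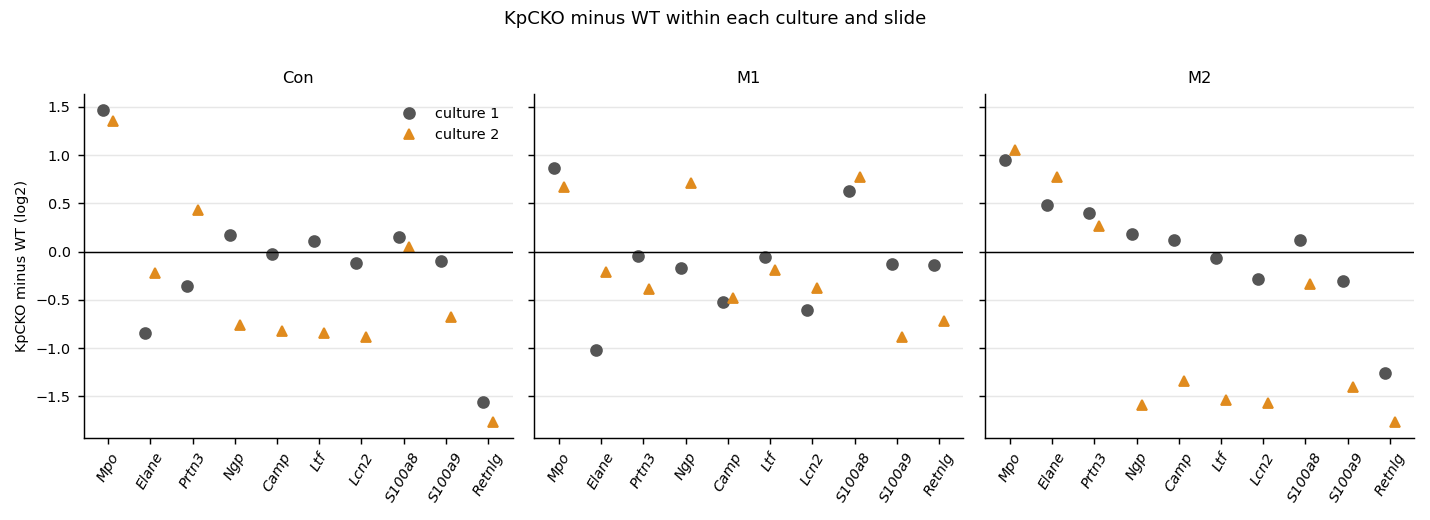
KpCKO minus WT (log2) for each gene within culture 1 (circles) and culture 2 (triangles), in 1 panel per treatment. Mpo is above 0 and Retnlg below 0 in each pair. In Con and M2 the circles of Ngp, Camp, Ltf, Lcn2 and S100a9 lie between -0.30 and 0.18, and their triangles between -1.59 and -0.68.

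The 2 cultures gave different genotype differences. In culture 1, KpCKO minus WT lay between -0.30 and 0.18 in Con and M2 for Ngp, Camp, Ltf, Lcn2, S100a8 and S100a9. In culture 2, Ngp, Camp, Ltf, Lcn2 and S100a9 were lower in KpCKO by -0.88 to -0.68 in Con and by -1.59 to -1.34 in M2. S100a8 was at 0.05 and -0.34. Retnlg was lower by -1.77 to -1.26 in both cultures, although the culture 2 KpCKO arrays did not detect it. Of all genes, 2.88% were over 1.5-fold lower in KpCKO in both treatments of culture 2, and 3.46% in both of culture 1. The culture 2 KpCKO mouse is a single animal, and Con and M2 arrays of it are not independent, so this difference has no replicate. With normexp the smallest of these 5 genes' culture 2 values was -0.15, and -0.11 with normexp leaving out 4 aberrant spots of 1 array. In M1, Camp, Ltf, Lcn2 and S100a9 of culture 2 were at -0.88 to -0.19, and Ngp, which the WT M1 array of culture 2 did not detect, was at 0.71.

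M1 stimulation moved 5 of the 9 genes in WT, where 63.2% of all genes passed. Higher were 3 (34.5% of all genes) and lower were 2 (28.7%). In KpCKO 4 of 9 passed, against 50.2% of all genes, with 2 higher (24.8%) and 2 lower (25.4%). The median of the 9 was 0.05 in WT and -0.07 in KpCKO. Median change over all genes was 0.13 in WT under this scaling, -0.08 with quantile normalization and 0.40 with normexp. Lcn2 and Camp stayed above 0 and Ltf below 0 under each of these. With normexp the calls of Ltf in WT (-0.96, adjusted p = 0.101) and KpCKO (-1.11, adjusted p = 0.0857) and of Camp in KpCKO (1.02, adjusted p = 0.0740) were lost. The same values passed with normexp fitted without the spots far below local background (adjusted p = 0.0395, 0.0329 and 0.000207). Ngp passed in WT when either KpCKO M2 array was left out (-0.97, adjusted p = 0.0450). S100a8 passed in KpCKO without the culture 1 KpCKO M1 array (0.91, adjusted p = 0.0353) and without either KpCKO M2 array (0.61, adjusted p = 0.0429). Prtn3 passed in KpCKO without either WT Con array (0.40, adjusted p = 0.0461) and with normexp fitted without the spots far below local background (0.41, adjusted p = 0.0191). None of the 9 responses differed between genotypes by the interaction term (0.0716% of all genes did), and 1 had an unadjusted p under 0.05. That gene was Retnlg (1.23, adjusted p = 0.288), undetected in M1.

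In M2, 1 of 9 genes passed in WT (16.8% of all genes) and 0 of 9 in KpCKO (10.2% of all genes), with 1 at an unadjusted p under 0.05. The WT gene was Prtn3, lower in M2 but undetected on both WT M2 arrays, so no fold is given (measured means -6.65 against -5.91, adjusted p = 0.0497). That call was lost under 14 of the other settings, among them the fits without the culture 1 WT Con array (-0.40, adjusted p = 0.222) or either WT M2 array, and its direction turned with normexp (0.63). The 9 values in WT ran from -0.76 to 0.54. No M2 response differed between genotypes (0.00894% of all genes did), and none had an unadjusted p under 0.05.

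**Figure D3:**
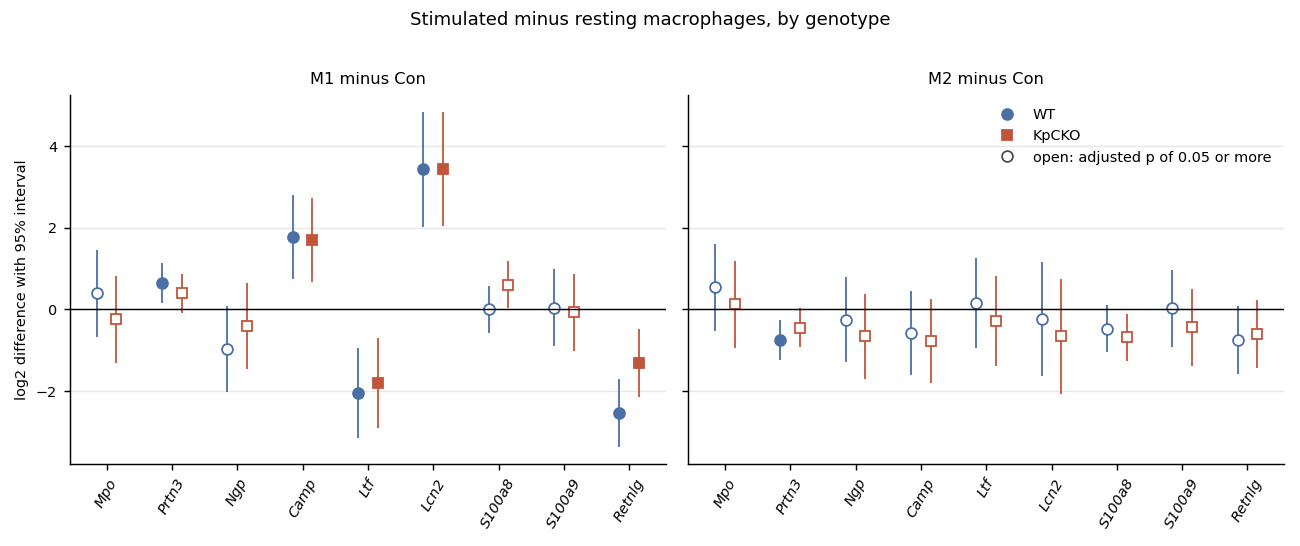
M1 minus Con and M2 minus Con (log2, limma) with 95% intervals for the 9 tested genes, WT as circles and KpCKO as squares, filled where the adjusted p is under 0.05. In M1, Camp and Lcn2 lie above 0 and Ltf and Retnlg below, while M2 values lie between -0.77 and 0.54.

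Between the cultures, 7 genes went together. Culture 2 minus culture 1 was negative and over 1.5-fold in all 4 Con and M2 groups for Ngp, Camp, Ltf, Lcn2, S100a8, S100a9 and Retnlg. Of all 22084 genes measured on every array, 0.955% met this. Retnlg was not well above background on the culture 2 KpCKO arrays of Con and M2, nor was Lcn2 on that of M2. For Retnlg in KpCKO M2, culture 1 was at -6.35 and the dimmest detected signal of the culture 2 array at -6.73. The 1.5-fold step is therefore not secured there. These 7 were picked after their values were seen, and the 4 groups come from 2 pairs of mice, so the count is a description with no test. With 2 mice against 2 an exact permutation test cannot go below 0.333. In WT Con the 7 values ran from -1.70 to -0.81, and in WT M2 from -1.74 to -0.91. In KpCKO they ran from -2.64 to -1.16 in Con and from -3.51 to -1.59 in M2. Ngp differed most in all 4 groups, and Camp (WT) or S100a8 (KpCKO) least.

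In M1 the values of the 7 genes were further apart. Culture 2 minus culture 1 in M1 ran from -2.95 (Ngp) to 0.08 (Lcn2) in WT and from -2.06 (Ngp) to 0.30 (Lcn2) in KpCKO, a span of 3.03 in WT, against 0.90 in Con and 0.83 in M2, and of 2.36 in KpCKO, against 1.48 in Con and 1.92 in M2. Over 1.5-fold lower in M1 were 4 of the 7 in each genotype. Ngp, undetected on the culture 2 WT M1 array, was over 2-fold lower in culture 2 in all 6 groups, as were 0.0815% of all genes. Camp, Ltf, S100a8 and S100a9 were lower in all 6 groups too, by -2.88 to -0.36, as 14% of all genes were. Retnlg was undetected on all 4 M1 arrays, so its M1 values give no direction between cultures. Lcn2 was at 0.08 and 0.30 in M1.

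**Figure D4:**
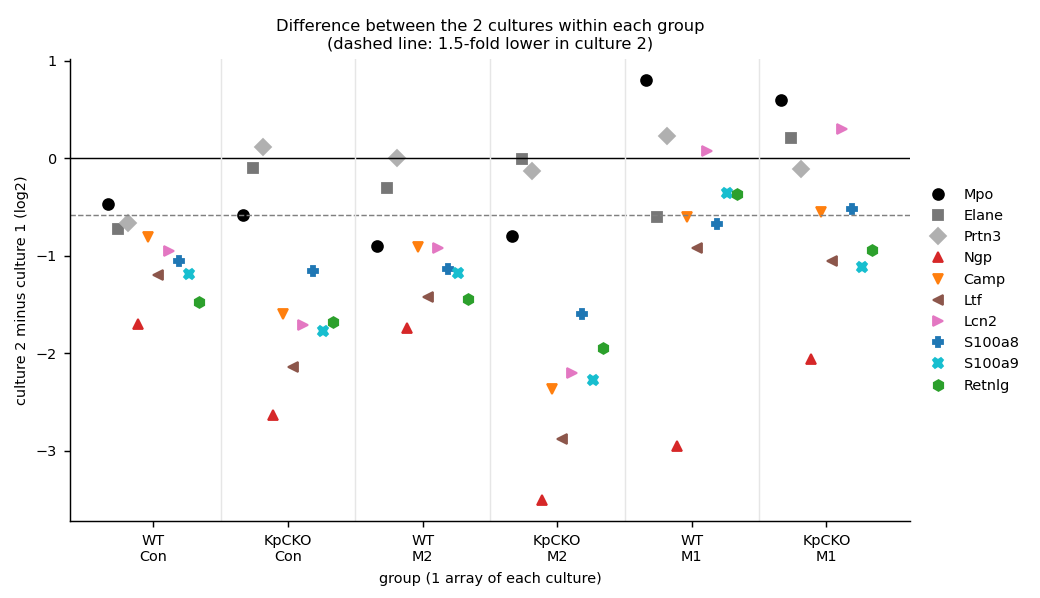
Culture 2 minus culture 1 (log2) for each of the 10 genes in each group, with a dashed line at 1.5-fold lower. In Con and M2 the 7 genes from Ngp to Retnlg lie below the line, while Mpo lies between -0.90 and -0.47 and Elane and Prtn3 between -0.73 and 0.11. In M1, Lcn2, Mpo and Prtn3 of WT are above 0.

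None of Mpo, Elane and Prtn3 was over 1.5-fold lower in all 4 groups, although Mpo was lower in each of them. Culture 2 minus culture 1 of Mpo was at -0.47 and -0.58 in Con and -0.90 and -0.79 in M2, but 0.80 and 0.60 in M1. Prtn3 ran from -0.67 to 0.23 and Elane, below background, from -0.73 to 0.21. Scaling by quantiles kept all 7 genes over 1.5-fold lower (-3.36 to -0.75), as were 0.779% of all genes. With normexp 3 of the 7 were lower in all 4 groups, and 2 (S100a8 and S100a9) by over 1.5-fold, as were 0.421% of all genes. In this setting 4 spots far below their local background pulled the fitted background of the culture 2 WT M2 array to -160. On the other arrays it was -1.45 to 7.48. Leaving out these spots, 6 of the 7 were lower in all 4 groups and Ngp, Ltf, S100a8 and S100a9 by over 1.5-fold, as were 0.448% of all genes. Retnlg, near background, was at 0.09 in KpCKO M2.

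Further granule and neutrophil genes were read from lists chosen for each class. The lists are broad, and a listed gene need not encode a protein of that granule. Over all genes, 2.22% differed between genotypes in Con, 16% in M1 and 1.93% in M2. Over 1.5-fold lower in culture 2 in the 4 Con and M2 groups were 0.955%. Of 7 other genes listed as azurophil, 5 were tested and 0 differed between genotypes in Con or M2. The acute phase protein haptoglobin (Hp) was 2.07 higher in KpCKO Con (adjusted p = 0.0532), cathepsin G (Ctsg) 0.26 (0.715) and the protease inhibitor Cst7 0.11 (0.952). Igfbp4 was lower in KpCKO M1 (-0.62, adjusted p = 0.0375). The membrane protein Ms4a3, a marker of granulocyte and monocyte progenitors, was over 1.5-fold lower in culture 2 in all 4 Con and M2 groups, as 1 of the 5. Of 9 other specific and gelatinase granule genes tested, 0 passed in Con, 3 in M1 and 1 in M2. The collagenase Mmp8 was higher in KpCKO, by 1.82 in Con (adjusted p = 0.0762), 2.09 in M1 (adjusted p = 0.0182) and 2.50 in M2 (adjusted p = 0.029). Its culture 2 minus culture 1 values were 0.15 to 1.89. Lysozyme Lyz1 (-0.67, adjusted p = 0.00794) and annexin Anxa1 (-0.56, adjusted p = 0.0401) were lower in KpCKO M1 and are named because the count was small, as is Trem1. The gelatinase Mmp9, the surface protein Cd177 and the chitinase-like Chil1 did not pass in any genotype comparison (Con values -0.87, 0.66 and -0.96). Chil1 and the integrin subunit Itgb2l were over 1.5-fold lower in culture 2 in the 4 Con and M2 groups, as 2 of the 9. Of 10 mature neutrophil genes, 0 passed in Con or M2, and the activating receptor Trem1 was lower in KpCKO M1 (-2.49, adjusted p = 0.0062). The chemokine receptor Cxcr2 (1.12, adjusted p = 0.519), the formyl peptide receptor Fpr1 (-0.92, 0.508) and the growth factor receptor Csf3r (0.86, 0.0733) did not pass in Con. Among these 10 the protease gene Asprv1 alone was over 1.5-fold lower in culture 2 in the 4 groups.

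Among 5 tested genes for processing, storage or inhibition of granule proteases, 2 passed in Con (2.22% of all genes), 4 in M1 (16%) and 1 in M2 (1.93%). Slpi, the secreted inhibitor of neutrophil elastase, was higher in KpCKO in Con (2.07, adjusted p = 0.00221), M1 (2.96, adjusted p = 0.000424) and M2 (2.30, adjusted p = 0.00154). Ctsc, which activates the granule serine proteases, was lower in Con (-1.14, adjusted p = 0.0238) and M1 (-0.83, adjusted p = 0.0236). The elastase inhibitor Serpinb1a and Srgn, the proteoglycan on which granule proteins are stored, were lower in KpCKO M1 (-1.40, adjusted p = 0.0447, and -0.92, adjusted p = 0.0107). Lrp1, a receptor that takes up lactoferrin and elastase complexes, was higher in KpCKO M1 (1.10, adjusted p = 0.00336) and M2 (0.88, adjusted p = 0.0185). Transcription factors were listed with the granulocyte genes, and 7 were tested. Cebpa was higher (2.81, adjusted p = 0.0014) and Cebpd (-1.44, adjusted p = 0.0109) and Irf8 (-0.54, adjusted p = 0.0342) lower in KpCKO M1, where 16% of all genes differed. In Con and M2 0 of 7 passed (2.22% and 1.93% of all genes did). In WT, Cebpa fell by 4.89 under M1, and Cebpd rose by 1.77, Irf8 by 3.33 and Spi1 by 1.43.

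Among genes that LPS induces, 7 of 9 tested rose in WT M1 (34.5% of all genes did) and none fell (28.7% did), Slpi by 1.21 (adjusted p = 0.000478) and Nfkbiz, a cofactor needed for Lcn2 induction, by 2.55 (adjusted p = 0.0261). In KpCKO M1, 1 of the 9 was higher than in WT and 4 were lower, where 16% of all genes differed in either direction. Slpi was higher, and Il1rn (-1.92), Zc3h12a (-0.65), Cebpd and Cp (-1.84) were lower. For Lcn2 the KpCKO minus WT value in M1 was -0.49 (-1.89 to 0.91, adjusted p = 0.589), and Hp and Orm1 did not pass (0.94 and 0.97, adjusted p = 0.146 and 0.324). For receptors of granule and calprotectin proteins, M1 raised the formyl peptide receptor Fpr2 by 7.39 and Cd69 by 10.2 in WT, and the calprotectin receptor Tlr4 fell by 1.73.

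Marker lists of other cells were read beside the culture difference. The mean log2 level of macrophage markers in Con was 5.49 and 5.53 in WT cultures 1 and 2 and 4.90 and 4.83 in KpCKO, and 3 of 11 were lower in KpCKO Con, 7 in M1 and 3 in M2, where 2.22%, 16% and 1.93% of all genes differed in either direction. In Con these were the mannose receptor Mrc1 (-1.32, adjusted p = 0.00774), complement C1qa (-1.43, adjusted p = 0.0118) and the LPS co-receptor Cd14 (-1.19, adjusted p = 0.00639). Monocyte markers, all 7 detected on all arrays, were at 0.11 and 0.59 in WT Con and -0.34 and 0.60 in KpCKO Con, higher in culture 2. Eosinophil markers were at -4.77 and -5.51 in WT Con and -4.12 and -5.00 in KpCKO Con, lower in culture 2 in each of the 6 groups, with 3 of 5 tested and 1 undetected on every array. Of the 3 tested, Prg2, a granule protein gene of eosinophils, was lower in culture 2 in all 6 groups (-2.09 to -0.32), Siglecf ran from -3.14 to 0.03, and the eotaxin receptor Ccr3 was higher in culture 2 in the 3 WT groups (0.09 to 0.88) and lower in the 3 KpCKO groups. Stromal markers were at 0.60 and -0.60 in KpCKO Con and at 0.31 and -0.99 in KpCKO M2, against 0.46 and 0.62 and 0.31 and 0.23 in WT. Means of progenitor, erythroid, B cell, T and NK cell, mast cell and basophil, and dendritic markers lay between -6.53 and -3.76 on every array, and those of megakaryocyte markers between -3.48 and -2.58. Markers that no array detected included Ms4a1 and Pax5 (B cell), Ms4a2 (mast cell and basophil) and Epx (eosinophil), and also the azurophil gene Bpi. On all 12 arrays, 2 of 6 B cell and 3 of 7 T and NK cell markers were detected. So were 2 of 5 mast cell and basophil and 3 of 5 eosinophil markers. The part of any of these in the culture difference was not tested.

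Genes outside the 10 were ranked by how closely their log2 levels followed a member over the 12 arrays. The 10 genes were left out of the ranking, so it does not show whether they followed each other. Among 12102 other named genes detected on all arrays, Pearson's r was highest with Clgn (0.981) and Nfix (0.980) for Camp and Cxcr6 (0.981) and Zfp28 (0.978) for Ltf. It was highest with N6amt1 (0.972) and Pias2 (0.931) for S100a9, Tbc1d9 (0.936) and Nt5c (0.931) for S100a8, and Tmem200a and Fscn3 (both 0.886) for Mpo. The arrays come from 4 mice and share slides by treatment, so these values describe likeness only. Each of the 5 members had different nearest genes.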

How the data were processed

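Cy3-labelled BMDM RNA was read on Agilent arrays of 1 colour. The deposited scanner tables hold, per spot, signal intensities from Agilent Feature Extraction 10.7.3.1 (per the file headers), where the processed intensity is already background-subtracted by the authors' software. The authors' deposited value table holds log2 values from GeneSpring. It matched log2 processed intensity minus the array's 75th percentile, centred on each probe's median over arrays (slopes 0.9996 to 1.00 over 40749 probes), with no unknown direction. Here log2 processed intensities were averaged over spots of a probe, without control and outlier spots, and the array's 75th percentile was subtracted. No spot was saturated. Accessions named 26682 of 41174 probes by RefSeq.

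Models were fitted in limma 3.58.1 (R 4.3.3) to 22367 genes with 6 groups and culture as a block, 5 residual degrees of freedom, and Benjamini-Hochberg adjustment over all genes at 0.05. Same-culture arrays deviated together (r 0.268 to 0.724 over 15 pairs of groups), and the study states that each culture was shared. The script was tested on simulated data. Alternatives were other background correction, normalization, probe and dim-gene rules, no block, mouse as a block, the methods' t-test and leaving out each array. Their number limits the precision. Named list genes were up to 4 per list with the largest Con genotype difference; some are not reported here. The 10 genes and the lists were chosen with earlier results of these data known, and the comparisons between cultures and the second normexp setting were added after values were seen.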

Additional observations from a re-analysis of the deposited data

Results flagged for a closer look

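For Prtn3, KpCKO minus WT was negative in both cultures in M1 (-0.05 and -0.38) and positive in both in M2 (0.40 and 0.27), a difference of -0.55 between the 2 treatments. This difference was not tested, and Prtn3 was not well above background on 4 of the 12 arrays. For S100a9, the M2 minus Con difference was above 0 in both WT cultures (0.02 and 0.03) and below 0 in both KpCKO cultures (-0.18 and -0.69), which set the genotypes apart by 0.46. The limma interaction term for it did not pass (adjusted p = 1, SE 0.56).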

How the results depend on the processing

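Counts of granule genes past the threshold in M1 against Con were the ones that moved most. In WT the 5 genes became 3 with no replicate block, 2 with normexp, 2 among genes detected on all 12 arrays, and 1 or 0 by the methods' t-test before and after adjustment. In KpCKO, against 4 genes, 1 passed with no replicate block and with normexp (Lcn2 in both), 2 among genes detected on all 12 arrays, and 1 or 0 by the t-test, where the 1 was Prtn3 and none of the 4. Leaving out each array gave 3 to 6 in WT and 2 to 5 in KpCKO. For M2 in WT, the 1 gene became 0 with the mean of a gene's probes, mouse as a random block, no filter, no replicate block, both normexp settings, detection on all 12 arrays and the t-test in both forms, and was 0 to 1 with arrays left out. In KpCKO the t-test gave 1 before adjustment. KpCKO against WT gave 1 in Con with quantile normalization and 0 to 1 with arrays left out. In M2 it gave 1 by the t-test before adjustment and 0 to 1 with arrays left out. In M1 it gave 3 with normexp without the 4 aberrant spots, where 7514 genes passed against 3579 in the main setting. Left-out arrays gave 0 in KpCKO against WT in M1, in M2 against Con in KpCKO and in both interactions. Without the block of paired cultures, M1 adjusted p in WT was 0.0975 for Camp and 0.140 for Ltf. Directions turned for Retnlg in M1 with both normexp settings (0.16 in WT, 0.10 in KpCKO) and for Prtn3 in WT M2 with normexp (0.63). Beyond the 4 spots of 1 array, the cause was not tested. The authors' value table changed none of the counts. Signals near background limit Prtn3, Elane and Retnlg.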
